A study of Rattus norvegicus with 12 samples.

Results

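Dopamine is made from tyrosine by tyrosine hydroxylase and then by aromatic L-amino acid decarboxylase, is packed into vesicles, is taken back into the nerve ending after release and is broken down by the monoamine oxidases. In the striatum most of this machinery sits in the axons of dopamine neurons whose cell bodies lie in the midbrain, so their messenger RNA is mostly made outside the tissue, while the monoamine oxidases are also made by local glia, vessels and neurons. L-DOPA given as a drug enters the pathway after its first step and is turned into dopamine by the decarboxylase, also outside dopamine neurons.

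The genes described here are Th, Ddc and Gch1 for synthesis, Slc18a2 for packaging, Slc6a3 for uptake and Maoa and Maob for breakdown. Members were the probes whose gene name in the scanner files was one of these 7 symbols, ignoring case. The files gave such probes for 6 of the 7 genes. Gch1 was found through the RefSeq accession of a probe that the files name Gch, which brought the set to 9 probes of 7 genes, out of 41012 probes and 35623 genes on the array.

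RNA from punches of the dorsal striatum of 12 male rats was hybridised to single-colour Agilent rat arrays. Each rat had its own array, and the 4 groups held 3 rats each. Every animal, the controls too, had received 9 µg of 6-OHDA, a toxin taken up by dopamine neurons, in the substantia nigra of the left side. The 6-OHDA group had this lesion alone. The HFS group also had high frequency stimulation of the subthalamic nucleus on the lesioned side over 5 days, with a frequency of 130 Hz, a pulse width of 80 µs and a current of 60 µA. In the DOPA group L-DOPA was injected at 25 mg/kg together with benserazide, an inhibitor of the decarboxylase outside the brain, at 12.5 mg/kg, and this was done 2 times a day, 12 h apart, for 19 days. The DOPA/HFS group had both, with the stimulation in the last days of the drug treatment. For the rats on the arrays, the paper describes implantation of an electrode, under anaesthesia, only in the HFS and DOPA/HFS groups. Stimulation and implantation therefore cannot be told apart in any comparison below. The authors kept only rats that had lost most of their dopamine uptake sites and whose electrode, if any, lay in the subthalamic nucleus. No unlesioned animal was on the arrays analysed here, so no value shows what the lesion itself did, and the age and strain of the rats are not given in the sources used here.

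The tissue label was checked against marker genes. All 10 listed markers of striatal projection neurons passed the filter on dim probes, and Ppp1r1b, a phosphoprotein of these neurons, had a log2 signal between 13.19 and 14.12 on the 12 arrays. Of the 6 listed markers of dopamine neurons 5 passed. Ddc and the transcription factor Nr4a2 were well above background on 12 of 12 arrays, Slc18a2 on 11, and Th and Pitx3, another transcription factor of these neurons, on 10, while Slc6a3 was on 0.

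Signals are given as log2 intensity after quantile normalization between arrays, and a difference of 1 is a doubling. The scanner software marks each spot that is well above background, which held for between 50.5% and 63.2% of the spots on the 12 arrays. DOPA/HFS replicate 3 stood apart with 4175 outliers among its 43379 spots, while the other 11 arrays had between 2 and 25. Such spots were left out, so some genes lack a value on that array. A probe entered the test if it was well above background on a share of 0.4 or more of the arrays, and the brightest such probe stood for its gene. Of the 7 genes, Th, Ddc, Slc18a2, Maoa and Maob passed and were tested among 20407 genes. Slc6a3 and Gch1 did not pass. To be called, a gene needed a fold over 1.2 or under 0.8 and, in limma, a p under 0.1 after Benjamini-Hochberg adjustment.

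None of the 5 tested members was called in any comparison, that is 0 of 5 when HFS, DOPA or DOPA/HFS was set against 6-OHDA. Over all tested genes limma called 0 in HFS (0%), 1 in DOPA (0.0049%), which was Igsf5, and 0 in DOPA/HFS (0%). At an unadjusted p under 0.05 the same fits held 0 members against 477 genes (2.34%) in HFS, 2 members, Th and Slc18a2, against 528 genes (2.59%) in DOPA, and 1 member, Th, against 561 genes (2.75%) in DOPA/HFS. The smallest p values among the members were those of Th in DOPA and then in DOPA/HFS, where it was higher, followed by Slc18a2 in DOPA, where it was lower. With the slide as a block in the limma fit 0 genes were called in DOPA, so that the call of Igsf5 was lost. Each difference of the members from 6-OHDA kept its size in this fit, and 0 members were called. The members at an unadjusted p under 0.05 were then Ddc in HFS and Th both in DOPA and in DOPA/HFS, so that Ddc in HFS was gained and Slc18a2 in DOPA was lost.

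Counted by groups that did not overlap in either direction, Th, Slc18a2 and Maob separated HFS from 6-OHDA (3 of 5 members, 5.13% of the 20381 genes with no value missing from these arrays). Th, Slc18a2 and Maoa separated DOPA from 6-OHDA (3 of 5, 6.27% of 20372 such genes), and Th alone separated DOPA/HFS from 6-OHDA (1 of 5, 4.18% of 18382). The counts for Th are not firm, since it was not well above background on 6-OHDA replicates 2 and 3, and in HFS it was separated only past the second decimal. With the spots of the earlier part of the array alone, described below, Th in HFS and in DOPA/HFS overlapped with 6-OHDA. With 3 arrays against 3, each of these separations gives p = 0.1 in the exact permutation test (two-sided), the smallest it allows, and the 3 comparisons share their 6-OHDA arrays. In bulk tissue, fewer cells of a type and less RNA per cell cannot be told apart, which holds for every value below.

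**Figure D1:**
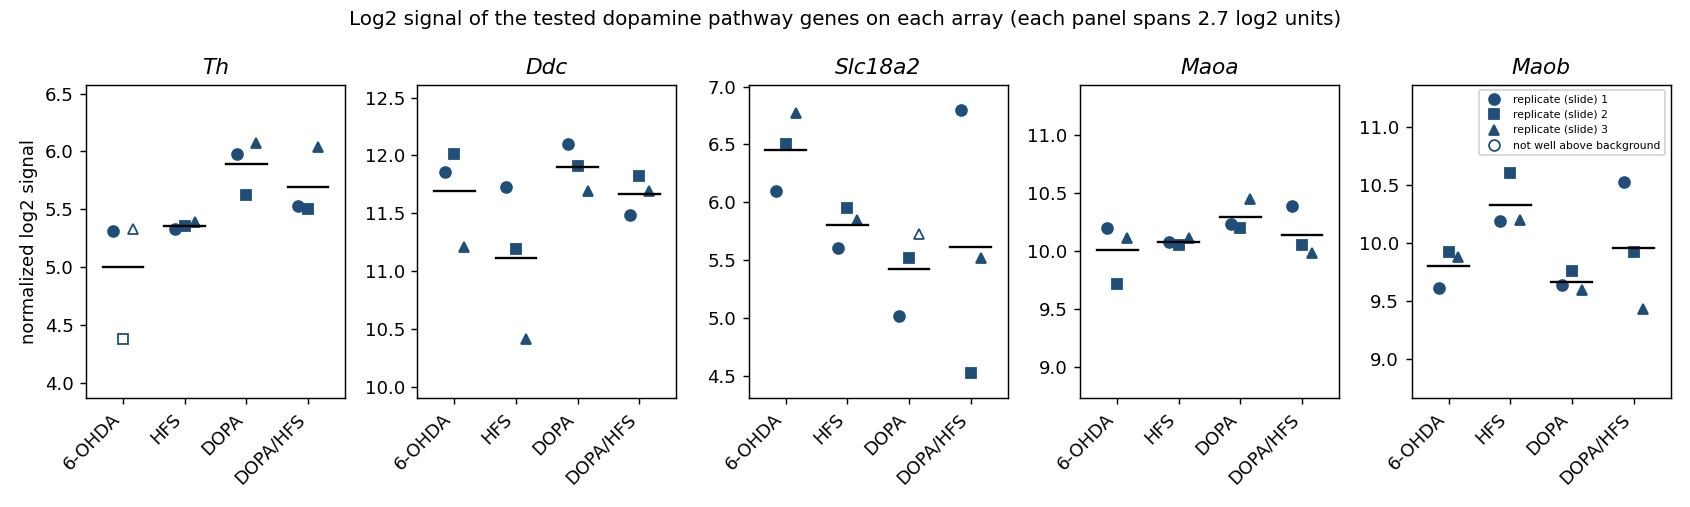
Normalized log2 signal of the brightest probe of Th, Ddc, Slc18a2, Maoa and Maob on each of the 12 arrays, by group. Symbols mark the replicate, which is also the slide, open symbols mark arrays on which the probe was not well above background, and bars are group means. On the Th panel all DOPA arrays lie above all 6-OHDA and HFS arrays, and on the Slc18a2 panel replicate 1 of DOPA/HFS stands at 6.8 beside 4.53 and 5.52.

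Th encodes tyrosine hydroxylase, the enzyme of the first and rate-limiting step. Its log2 signal was 5.31, 4.38 and 5.33 on the 6-OHDA arrays, 5.33, 5.36 and 5.39 on the HFS arrays, 5.98, 5.62 and 6.07 on the DOPA arrays and 5.53, 5.5 and 6.04 on the DOPA/HFS arrays, in the order of the replicates. The DOPA arrays were all higher than the 6-OHDA and the HFS arrays, and they overlapped with the DOPA/HFS arrays. The order of the group means was 6-OHDA, HFS, DOPA/HFS and DOPA. Of the neighbours in this order only DOPA/HFS and DOPA overlapped, although the highest 6-OHDA and the lowest HFS array both rounded to 5.33.

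Th was well above background on only 1 of the 3 6-OHDA arrays, replicate 1, and on all 9 treated arrays. The 4.38 of 6-OHDA replicate 2 lay below 5.16, the lowest signal of any spot well above background on that array, so the sizes of the differences from 6-OHDA are uncertain.

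DOPA differed from 6-OHDA by 0.89 on the log2 scale (standard error 0.26, 95% interval 0.32 to 1.45, adjusted p = 1 in limma), with higher values on 3 of 3 slides. DOPA/HFS differed by 0.69 (interval 0.12 to 1.25, adjusted p = 1), also higher on 3 of 3 slides, and by 0.51 without DOPA/HFS replicate 3. The difference for HFS was 0.35 (interval -0.21 to 0.92, adjusted p = 0.998). Within the slides, DOPA minus 6-OHDA was 0.68, 1.24 and 0.74, DOPA/HFS minus 6-OHDA was 0.23, 1.13 and 0.71, and HFS minus 6-OHDA was 0.02, 0.98 and 0.06. On slide 2, which holds the low 6-OHDA array, each of the 3 differences was the largest. On slide 3 the Th spots overlapped in intensity before normalization, from 33.5 to 61.9 on 6-OHDA and from 41.1 to 59.6 on DOPA. The 75th percentile of all intensities was 929 and 539 on these arrays, so the 0.74 there appeared only with the scaling between arrays. The lowest signal of any spot well above background on DOPA replicate 3 was 5.71, above every 6-OHDA value of Th. The part of the scaling in the Th difference was not tested.

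Over both arms, the 6 arrays with L-DOPA averaged 5.79 and the 6 without it 5.18, a difference of 0.61 (standard error 0.18, adjusted p = 1 in limma). It was 0.18 after the normexp correction, 0.15 in the deposited log2 table and 0.36 from the spots of the earlier part of the array, all described below, and in the deposited table Th was no longer at an unadjusted p under 0.05. An exact two-sided permutation test kept HFS and unstimulated rats apart but exchanged arrays between slides. In this test p was 0.005, the smallest that its 400 arrangements can give. It was 1 of 25 such tests on the members, and it is not adjusted for that number. It was not run within the slides or on the alternative values. The limma fit of the same contrast called 0 of 5 members and 1 of all genes (0.0049%), and at an unadjusted p under 0.05 it held 1 member, Th, among 558 genes (2.73%).

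The Th probe was printed in 10 spots on each array, which shows how firmly each array measured it. On the 6-OHDA arrays 10, 4 and 0 of the 10 spots were well above background, so only 1 of the 3 control arrays measured Th by the rule that at least a share of 0.5 of the spots must be. On the HFS arrays all 10 were on each array, and on the DOPA arrays 10, 9 and 6 were. On DOPA/HFS all 10 were on replicates 1 and 2. On replicate 3 the scanner software marked 4 of the 10 spots as outliers, with intensities between 1100 and 9180, and the other 6, between 52.7 and 84.7, were used.

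The low mean of 6-OHDA replicate 2 came from part of its spots. In the earlier part of the array, in the order of the spot numbers, its 4 Th spots averaged 5.61, and in the later part its 6 spots averaged 3.55. On the other 2 control arrays these parts gave 5.27 and 5.33, and 5.28 and 5.36. No other array had the parts as far apart, the next being DOPA/HFS replicate 3, with 5.53 from its 1 spot and 6.15 from its 5. Among 49 other probes with 10 spots and a mean log2 signal between 4 and 7, 37 were brighter in the earlier part of 6-OHDA replicate 2. The difference there had a median of 0.08 over all 49 and reached 3.56, and the median was also 0.08 on DOPA replicate 2. The Th spots of the earlier part were the brighter ones on the other arrays of this slide too, by 0.48 on HFS, 0.4 on DOPA and 0.25 on DOPA/HFS replicate 2. The part of the array position in the Th values was not tested further.

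With only the spots of the earlier part, a choice made after the values were seen, the Th signal was 5.27, 5.61 and 5.28 on the 6-OHDA arrays, 5.25, 5.65 and 5.26 on the HFS arrays, 5.87, 5.86 and 6.02 on the DOPA arrays and 5.56, 5.65 and 5.53 on the DOPA/HFS arrays. The DOPA arrays lay above all others, whereas HFS and 6-OHDA arrays overlapped throughout. The difference from 6-OHDA became 0.53 for DOPA (standard error 0.15), 0.2 for DOPA/HFS (0.15) and 0 for HFS (0.15). With only the later part it became 1.13, 0.94 and 0.59, each with a standard error of 0.42. Leaving out 6-OHDA replicate 2 as a whole gave 0.57 for DOPA, 0.38 for DOPA/HFS and 0.04 for HFS.

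The size of the Th difference also changed with other processing. It was 0.27 for DOPA, 0.18 for DOPA/HFS and 0.09 for HFS after a normexp correction with an offset of 50, and 0.28, 0.11 and 0.09 in the deposited log2 table, in which the median of all genes was itself shifted by -0.12 in DOPA/HFS. With the outlier spots kept, DOPA/HFS differed by 1.2. The direction for DOPA was the same under each of the 25 alternatives.

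**Figure D2:**
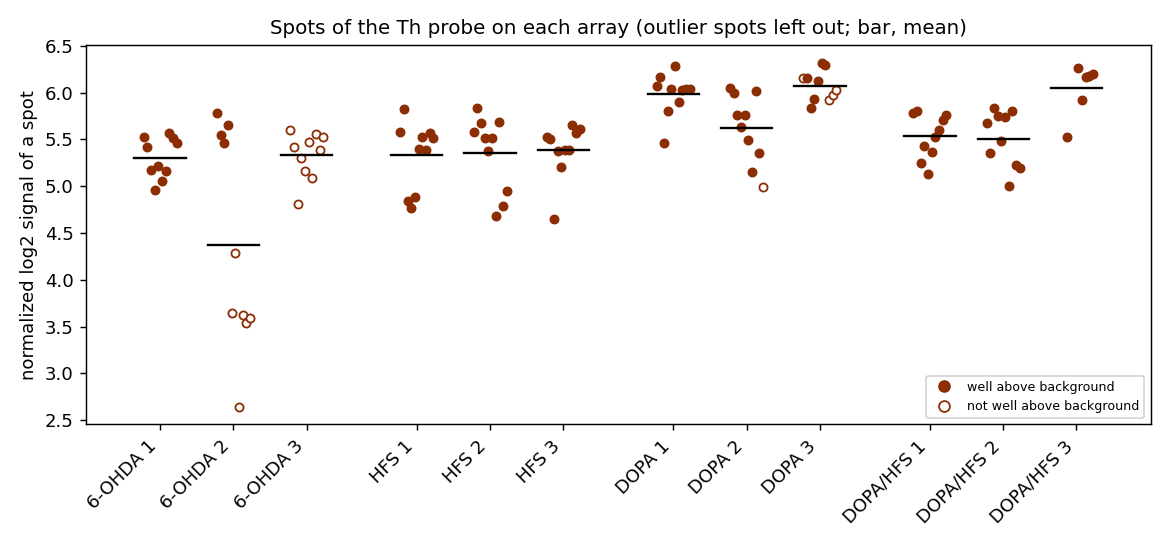
Normalized log2 signal of every used spot of the Th probe on each of the 12 arrays, with 10 spots per array except DOPA/HFS replicate 3, which has 6. Filled points were well above background, open points were not, and bars are means. On 6-OHDA replicate 2 the spots fall into a group of 4 between 5.46 and 5.78 and a group of 6 between 2.64 and 4.29.

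Ddc encodes aromatic L-amino acid decarboxylase, which turns L-DOPA into dopamine, and its probe was well above background on all 12 arrays. The log2 signal was 11.86, 12.01 and 11.21 on the 6-OHDA arrays, 11.73, 11.19 and 10.42 on the HFS arrays, 12.1, 11.91 and 11.69 on the DOPA arrays and 11.49, 11.82 and 11.69 on the DOPA/HFS arrays. HFS had the lowest mean and the widest spread (mean 11.11, SD 0.66, n = 3), and DOPA had the highest mean (11.9, SD 0.21, n = 3). All neighbours in the order HFS, DOPA/HFS, 6-OHDA and DOPA overlapped.

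HFS differed from 6-OHDA by -0.58 (interval -1.26 to 0.1, adjusted p = 0.998 in limma), and each HFS array was below the 6-OHDA array of its slide, by -0.13, -0.82 and -0.79 (exact permutation p = 0.2). The difference was -0.23 without HFS replicate 3 and -0.89 without HFS replicate 1. DOPA differed by 0.2 (interval -0.47 to 0.88, exact permutation p = 0.6) and DOPA/HFS by -0.03 (interval -0.71 to 0.65, exact permutation p = 0.9). The sign for DOPA turned without 6-OHDA replicate 3 (-0.04), and that for DOPA/HFS turned without 6-OHDA replicate 1 (0.05), without 6-OHDA replicate 2 (0.13) or without DOPA/HFS replicate 1 (0.06). The gene of the enzyme that converts the drug was thus measured in all groups, and no difference from 6-OHDA passed the test.

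Gch1 encodes GTP cyclohydrolase, which starts the synthesis of tetrahydrobiopterin, the cofactor of tyrosine hydroxylase. Its probe was not well above background on any of the 12 arrays, with log2 signals between 2.53 and 4.62, and no fold is given. The other genes of cofactor supply were measured more firmly, 5 of the 6 listed passing the filter. In HFS 2 of these 5 were higher and 3 lower (median -0.02), in DOPA 2 higher and 3 lower (median -0.12) and in DOPA/HFS 1 higher and 4 lower (median -0.14), against a median of 0.01, -0.01 and -0.01 over all genes. limma called 0 of the 5 in each comparison, and at an unadjusted p under 0.05 there were 0, 1 and 1.

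The 1 in DOPA was Gchfr, which encodes the feedback regulator of GTP cyclohydrolase. Its log2 signal was 10.11, 10.6 and 9.77 on the 6-OHDA arrays, 10.37, 10.17 and 9.88 on the HFS arrays, 9.33, 9.8 and 9.52 on the DOPA arrays and 9.78, 10.27 and 10 on the DOPA/HFS arrays. The DOPA and 6-OHDA arrays overlapped between 9.77 and 9.8, and the difference was -0.61 (standard error 0.23, adjusted p = 1 in limma). The 1 in DOPA/HFS was Qdpr, encoding dihydropteridine reductase, which recycles the cofactor, at 15.08, 15.47 and 15.34 against 15.58, 15.63 and 15.65. Its DOPA/HFS arrays lay below all 6-OHDA arrays, with a difference of -0.33 (adjusted p = 1).

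Slc18a2 encodes the vesicular monoamine transporter VMAT2, which packs dopamine, noradrenaline, serotonin and histamine into vesicles. The log2 signal of its brighter probe was 6.1, 6.5 and 6.77 on the 6-OHDA arrays, 5.61, 5.95 and 5.85 on the HFS arrays, 5.02, 5.52 and 5.73 on the DOPA arrays and 6.8, 4.53 and 5.52 on the DOPA/HFS arrays. The HFS and DOPA arrays all lay below the 6-OHDA arrays. DOPA/HFS held both the highest and the lowest of the 12 values, replicate 1 standing above every other array. The group means in the order DOPA, DOPA/HFS, HFS and 6-OHDA were 5.42, 5.62, 5.8 and 6.46, and only the last pair of neighbours did not overlap. The probe was well above background on every array except DOPA replicate 3.

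DOPA differed from 6-OHDA by -1.03 (standard error 0.45, interval -2.02 to -0.04, adjusted p = 1 in limma), and within the slides by -1.08, -0.97 and -1.04, so that it was lower on 3 of 3. HFS differed by -0.65 (interval -1.65 to 0.34, adjusted p = 0.998) and was lower on 3 of 3 slides, by -0.49, -0.55 and -0.92. DOPA/HFS differed by -0.84 (interval -1.83 to 0.15, adjusted p = 1, exact permutation p = 0.4), with 0.7, -1.97 and -1.25 within the slides. Without DOPA/HFS replicate 1 the difference of DOPA/HFS became -1.43, without replicate 2 it became -0.3, and without replicate 3 it became -0.79. After the normexp correction the differences were -0.45 for DOPA, -0.35 for HFS and -0.32 for DOPA/HFS, and in the deposited log2 table they were -0.48, -0.37 and -0.42. Slc18a2 in DOPA was at an unadjusted p under 0.05 in 12 of 23 alternatives.

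The dimmer Slc18a2 probe gave 4.38, 3.47 and 4.79 on the 6-OHDA arrays, 2.84, 3.19 and 3.88 on the HFS arrays, 3.61, 2.67 and 2.78 on the DOPA arrays and 5.46 and 2.6 on DOPA/HFS replicates 1 and 2, while replicate 3 was marked as an outlier. It was well above background on 1 array, DOPA/HFS replicate 1, which is also the highest array of the brighter probe. No difference is drawn from the arrays on which it was dim.

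Slc6a3 encodes the dopamine transporter, which takes dopamine back into the nerve ending and also carries 6-OHDA into it. Its probe was not well above background on any of the 12 arrays, with log2 signals between 2.66 and 3.67, and no fold is given.

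Maob encodes monoamine oxidase B, the form found in astrocytes and serotonin neurons, and its probe was well above background on all arrays. The log2 signal was 9.61, 9.92 and 9.88 on the 6-OHDA arrays, 10.19, 10.6 and 10.2 on the HFS arrays, 9.64, 9.76 and 9.59 on the DOPA arrays and 10.53, 9.92 and 9.43 on the DOPA/HFS arrays. The HFS arrays were all higher than the 6-OHDA and the DOPA arrays. DOPA/HFS ran from below the lowest DOPA array to near the highest HFS array. In the order DOPA, 6-OHDA, DOPA/HFS and HFS all neighbours overlapped.

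HFS differed from 6-OHDA by 0.53 (standard error 0.24, interval -0.01 to 1.07, adjusted p = 0.998 in limma), and within the slides by 0.58, 0.69 and 0.32, higher on 3 of 3. DOPA differed by -0.14 (interval -0.68 to 0.4, from -0.23 to -0.08 over the alternatives) and DOPA/HFS by 0.16 (interval -0.38 to 0.69), the latter with 0.92, 0 and -0.45 within the slides. For DOPA/HFS it was 0.42 without replicate 3, and it turned to -0.13 without replicate 1. It turned to -0.01 with the outlier spots kept, and it was 0 in the deposited table. The median of all genes in DOPA/HFS was itself shifted by -0.14 with those spots kept and by -0.12 in that table. Over both arms, the 6 stimulated arrays averaged 10.15 and the 6 others 9.73, a difference of 0.41 (adjusted p = 0.912 in limma), which was 0.27 without DOPA/HFS replicate 1 and 0.55 without DOPA/HFS replicate 3. An exact two-sided permutation test that kept rats with and without L-DOPA apart gave p = 0.05. It was also 1 of the 25 such tests and is not adjusted for that number. Apart from Maob here and Th with L-DOPA, the main effects of the members gave between 0.1 (Ddc, HFS) and 0.78 (Th, HFS) in these tests. The limma fit of the stimulation contrast called 0 of 5 members and 0 of all genes (0%). At an unadjusted p under 0.05 it held 1 member, Maob, among 889 genes (4.36%), and Maob was at that level in 14 of 22 alternatives.

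Markers of astrocytes, which make Maob, are given beside it. Of the 7 listed, 6 passed the filter, and in HFS 3 were higher and 3 lower, with a median difference of 0.05. Their summed signal, with Slc1a3 as the most abundant gene, is the sum of the linear intensities taken to log2. It was 15.92, 15.69 and 15.8 on the 6-OHDA arrays, 15.79, 15.67 and 15.84 on the HFS arrays, 15.96, 15.7 and 15.82 on the DOPA arrays and 15.84, 15.8 and 15.71 on the DOPA/HFS arrays. The sums overlapped between all groups. S100b, the marker that did not pass, was well above background on 0 arrays.

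Maoa encodes monoamine oxidase A, the form with a preference for serotonin and noradrenaline that also breaks down dopamine. The brighter of its probes gave 10.2, 9.72 and 10.11 on the 6-OHDA arrays, 10.08, 10.05 and 10.11 on the HFS arrays, 10.23, 10.2 and 10.45 on the DOPA arrays and 10.39, 10.05 and 9.98 on the DOPA/HFS arrays. The second probe gave 8.6, 8.09 and 8.37, then 8.37, 8.37 and 8.31, then 8.51, 8.51 and 8.56, and then 8.81, 8.41 and 8.4 in the same order. Both probes were well above background on all arrays and had their lowest value on 6-OHDA replicate 2. On the second probe the 6-OHDA and DOPA arrays overlapped, whereas on the brighter one they met at 10.2 without overlapping before rounding.

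DOPA differed from 6-OHDA by 0.28 on the brighter probe (interval -0.08 to 0.65, adjusted p = 1 in limma) and by 0.17 on the second. HFS differed by 0.07 (interval -0.29 to 0.44) and 0, and DOPA/HFS by 0.13 (interval -0.24 to 0.5) and 0.18. Within the slides, DOPA minus 6-OHDA was 0.03, 0.47 and 0.35. None of these 3 intervals reached a doubling. Leaving out 6-OHDA replicate 2 turned the sign for HFS (-0.07) and for DOPA/HFS (-0.01) and brought DOPA to 0.14. Without DOPA/HFS replicate 3 the difference of DOPA/HFS was 0.21, and without DOPA/HFS replicate 1 it was 0.

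**Figure D3:**
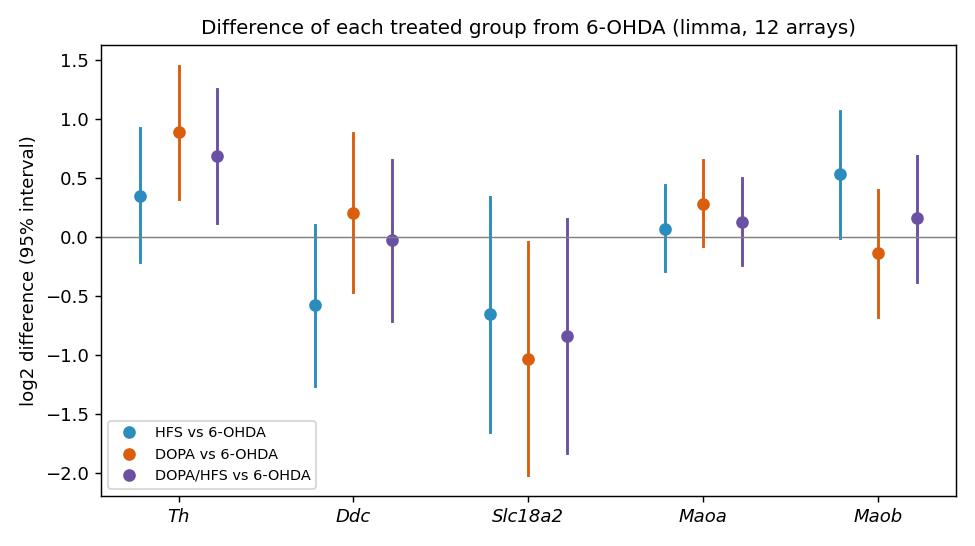
Log2 difference of each treated group from 6-OHDA for the 5 tested members, from limma fitted to all 12 arrays, with 95% intervals as lines. The interval leaves out 0 for Th in DOPA and DOPA/HFS and for Slc18a2 in DOPA, and none of the differences passed the adjustment over 20407 genes.

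Whether the effect of stimulation differed with L-DOPA was tested as an interaction. It was -0.55 for Th (interval -1.35 to 0.25), 0.84 for Slc18a2 (interval -0.56 to 2.25), 0.35 for Ddc, -0.23 for Maoa and -0.23 for Maob. For Th it was -0.24 without 6-OHDA replicate 2, -0.05 with the outlier spots kept, -0.17 after normexp and -0.27 in the deposited table. For Slc18a2 it was 0.25 without DOPA/HFS replicate 1, 1.39 without DOPA/HFS replicate 2, 0.48 after normexp and 0.43 in the deposited table. Over the alternatives it ran from 0 to 0.66 for Ddc, from -0.37 to -0.08 for Maoa and from -0.52 to 0.03 for Maob. The second Maoa probe gave 0.01. limma called 0 of 5 members and 0 of all genes (0%), and at an unadjusted p under 0.05 there were 0 members among 403 genes (1.97%). No difference between the effects of stimulation with and without the drug was shown for these genes.

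Enzymes and transporters that clear dopamine or its products by other routes passed the filter in 8 of 10 cases. In HFS 7 were higher and 1 lower (median 0.12), in DOPA 3 higher and 5 lower (median -0.03) and in DOPA/HFS 5 higher and 3 lower (median 0.05). limma called 0 of the 8, and 0 were at an unadjusted p under 0.05 in each comparison. Sult1a1, a phenol sulfotransferase, had the widest differences of the list in DOPA and DOPA/HFS, 0.62 and 0.61 (adjusted p = 1).

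L-DOPA reaches the brain on carriers of large neutral amino acids, and 3 of the 4 listed genes passed the filter. In HFS 1 was higher and 2 lower (median -0.31), in DOPA 2 higher and 1 lower (median 0.03) and in DOPA/HFS 1 higher and 2 lower (median -0.24), with 0 called by limma and 0 at an unadjusted p under 0.05. Slc3a2, the heavy chain of the carrier, ran from 12.35 to 12.91 over all arrays, and its difference from 6-OHDA was 0.11 for HFS as for DOPA and 0.17 for DOPA/HFS. Slc7a5, the light chain, ranged from 7.02 to 8.59, both extremes being DOPA/HFS arrays.

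Other monoamine neurons share Ddc and Slc18a2 with dopamine neurons. Of 7 genes of noradrenaline, adrenaline and serotonin, 6 had probes and 3 passed the filter, with 0 called and 0 at an unadjusted p under 0.05 in each comparison. The median was -0.1 in HFS and -0.14 in DOPA, and it was 0.03 in DOPA/HFS. Tph2, the tryptophan hydroxylase of serotonin neurons, was well above background on all 12 arrays, between 6.37 and 7.33. The noradrenaline enzyme Dbh was well above background on 2 of 12 arrays, the noradrenaline transporter Slc6a2 on 5 and the serotonin transporter Slc6a4 on 4.

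Of 16 genes that mark or specify dopamine neurons, 13 had probes and 9 passed the filter. In HFS 3 were higher and 6 lower (median -0.09), in DOPA 2 higher and 7 lower (median -0.17) and in DOPA/HFS 4 higher and 5 lower (median 0). limma called 0 of the 9, with 0, 1 and 0 at an unadjusted p under 0.05. The 1 was Ret, the receptor subunit for GDNF, at 6.91, 7.07 and 7.46 in DOPA against 7.95, 7.64 and 7.52 in 6-OHDA, a difference of -0.56 (adjusted p = 1) with no overlap. Pitx3 gave 5.39, 3.09 and 5.9 on the 6-OHDA arrays and between 5.48 and 5.98 on the 9 treated arrays. As with Th, its lowest value was on 6-OHDA replicate 2. This was not particular to genes of dopamine neurons. The microglia marker Itgam, the endothelium markers Pecam1 and Flt1 and the cortex marker Slc17a7 were also lowest on that array. It did not hold for every listed gene, since Lmx1b of this list was higher there than on the other 6-OHDA arrays. The cause was not tested.

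Markers of other cells were examined in the same arrays. The choroid plexus, the tissue that makes cerebrospinal fluid, had 5 tested genes, of which limma called 0 in HFS and 5 were higher at an unadjusted p under 0.05. Clic6 was well above background on 5 of 12 arrays, among them the 3 HFS arrays, and passed the filter through arrays on which it was high, so the count is not independent of the filter. Sostdc1 and Otx2, well above background on all 12 arrays, differed by 5.1 and 1.78 in HFS. The summed signal of the 5 genes, with Ttr as the most abundant gene over all arrays, was 8.17, 9.48 and 8.93 on the 6-OHDA arrays, 16.44, 12.11 and 15.44 on the HFS arrays, 8.46, 10.61 and 14 on the DOPA arrays and 9.61 and 9.95 on DOPA/HFS replicates 1 and 2. No sum is given for DOPA/HFS replicate 3, where Folr1 was marked as an outlier. HFS replicates 1 and 3 and DOPA replicate 3 were the highest. On HFS replicates 1 and 3 Ddc stood at 11.73 and 10.42 and Maob at 10.19 and 10.2, and on HFS replicate 2 they stood at 11.19 and 10.6. The part of this tissue in the differences of HFS from 6-OHDA was not tested.

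The other marker lists had 0 genes called by limma in any of the 3 comparisons. Among 10 projection neuron genes, Tac1 in HFS and Pdyn in DOPA and DOPA/HFS were higher at an unadjusted p under 0.05. Pdyn, the opioid precursor of the direct pathway, gave 16.09, 16.21 and 15.98 on the DOPA arrays and 14.68, 15.87 and 15.81 on the DOPA/HFS arrays, against 14.53, 14.83 and 14.74 on the 6-OHDA arrays. On DOPA/HFS replicate 1, where Slc18a2 was highest, Pdyn lay within the range of the 6-OHDA arrays. At an unadjusted p under 0.05 there were 0 of 6 genes of astrocytes, 0 of 5 each of endothelium, pericytes, oligodendrocytes and microglia, 0 of 2 of cholinergic interneurons and 0 of 1 each of cortex, serotonin neurons and noradrenaline neurons. Among the 5 tested markers of dopamine neurons, the genes at that level were Th and Slc18a2.

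Genes with a like pattern were looked up for the members well above background on all 12 arrays, among 14955 genes measured as firmly. The measure was the Pearson correlation over the 12 arrays, which share 3 slides, and it is a description only. For Maob the highest were Dync2i2 (r = 0.925, Spearman rho = 0.937), an unnamed transcript TC548033 (0.881 and 0.909) and Sgpl1 (0.864 and 0.888). For Ddc they were TC538830 (r = 0.93, rho = 0.888), Rasip1_predicted (0.926 and 0.797) and LOC679060 (0.926 and 0.79). For Maoa they were LOC313391 (r = 0.92, rho = 0.888), RGD1304927_predicted (0.916 and 0.944) and TC518700 (0.914 and 0.916). Dync2i2, like Maob, was highest on HFS replicate 2, at 10.25, and on DOPA/HFS replicate 1, at 10.22. TC538830, like Ddc, was lowest on HFS replicate 3, at 13.59.

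The promoters of the 7 genes, from 250 bases before to 50 after the start, were taken from RefSeq (rat assembly GRCr8), 9 in all since Ddc has 3. They were searched on both strands for TGACGTCA, the cAMP response element, which reads the same on both. Of these 9 promoters, 2 held it, those of Th and Slc18a2, against 612 of 33469 promoters of the same length (1.83%). The stretches around the matches are shown because these are the members with the largest differences in DOPA, in opposite directions. They were chosen after the values were seen, although the plan was to show the Th promoter only if Th passed the test. A match describes the sequence alone, and neither gene was called by limma in any comparison. The Th stretch is chr1:207508260-207508307 on the minus strand, with the match beginning 69 bases before the start, and the Slc18a2 stretch is chr1:268399949-268399996 on the plus strand, with the match 52 bases before it. Capitals mark the motif.
Th: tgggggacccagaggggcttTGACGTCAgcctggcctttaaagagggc
Slc18a2: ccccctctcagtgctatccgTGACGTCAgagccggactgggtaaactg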

How the data were processed

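The 12 arrays were Agilent rat arrays of 45018 spots, 1 per animal, read by the authors with Agilent Feature Extraction 9.1, and each deposited scanner file holds a processed intensity per spot after the scanner's background subtraction. The value table deposited for the series holds log2 values made by the authors, with a median of 7.21 on every array; its background treatment is not given in the sources used here, and it served as an alternative.

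The 1639 control spots and spots marked as outliers were left out, log2 intensities were quantile normalized, and spots of a probe were averaged. A probe passed when at least a share of 0.5 of its spots was well above background in at least a share of 0.4 of the arrays. Of 24824 probes with a RefSeq accession, 10735 were named through GRCr8 annotation, and the others kept the name in the file. The brightest probe stood for its gene, and 20407 genes were tested with limma 3.58.1 in R 4.3.3 on all 12 arrays without covariates, with Benjamini-Hochberg adjustment over all of them. Main effects compared 6 arrays with 6. The permutation tests were exact and two-sided, and they exchanged arrays between slides. The script was tested on simulated data. Version 1.17.8 of data.table, jsonlite 2.0.0 and matplotlib 3.10.9 were also used.

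By the slide codes of the scanner files, each slide carried 1 array of each group, all with the same replicate number. Every group kept its own place on the slides, so place and group cannot be told apart. The number of arrays limits the precision.

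Named were the 7 members with every probe, the genes of lists on cofactor supply, other breakdown and clearance, uptake of L-DOPA, noradrenaline, adrenaline and serotonin, and dopamine neuron identity, markers of cell types, and the 3 genes most like each member measured on all arrays. The members and lists were chosen with earlier results of these data known. A gene of the lists is not reported here. Alternatives were a 75th percentile scaling in place of quantiles, a normexp correction with an offset of 50, the authors' deposited log2 values, other filters, all probes, kept outlier spots, a replicate block, only the arrays compared, other thresholds and each array left out. The median of the spots and the earlier or later Th spots alone were added after the data were seen.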

Additional observations from a re-analysis of the deposited data

Results flagged for a closer look

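The second, dimmer probe of Slc18a2 did not pass the filter, and no difference from its fits is given here. On DOPA/HFS replicate 1 it gave a log2 signal of 5.46, above the highest 6-OHDA array at 4.79. That array was the only 1 of the 11 with a value on which the probe was well above background. The brighter probe was also highest on it, at 6.8. The cause was not tested.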

How the results depend on the processing

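The 30 member results were recomputed in 687 values, of which 669 kept their direction and their side of the threshold and 18 turned in direction, in 10 of the results. Members called stayed at 0 by limma in all 159 settings, with a lowest adjusted p of 0.444. Keeping outlier spots turned Maoa in DOPA/HFS to -0.02 and Maob in DOPA/HFS to -0.01. The median of all genes in DOPA/HFS was itself shifted by -0.14 with these spots kept. The main effect of HFS turned to -0.04 for Th in the deposited table, where its median over all genes was -0.05. It turned to -0.17 for Th from the spots of the earlier part of the array, an alternative added after the data were seen. For Maoa it turned to 0.02 after normexp.

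With 1 array left out, the difference ranged from -0.07 to 0.17 for Maoa in HFS, from -0.04 to 0.36 for Ddc in DOPA, from -0.27 to 0.13 for Ddc, from -0.01 to 0.22 for Maoa and from -0.13 to 0.42 for Maob in DOPA/HFS. The main effect of HFS ranged from -0.08 to 0.16 for Th, from -0.53 to 0.04 for Slc18a2 and from -0.11 to 0.01 for Maoa, and the interaction from 0 to 0.66 for Ddc and from -0.52 to 0.03 for Maob. Genes called ranged from 0 to 2 in HFS, from 0 to 13 in DOPA, from 0 to 3 in DOPA/HFS, from 1 to 29 for the main effect of L-DOPA and from 0 to 1 for that of HFS, and the 13 and the 29 came without DOPA/HFS replicate 1.

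Genes called were 3 in HFS and 0 in DOPA with no filter on dim probes. With the filter of all arrays of a group they were 1 in HFS, 2 for the main effect of L-DOPA, 1 for that of HFS and 1 for the interaction. They were 2 in DOPA with only the arrays compared, 0 in DOPA at an adjusted p under 0.05, and 2 for the main effect of L-DOPA after normexp and in the deposited table. The cause was not tested.

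With the replicate number as a replicate block, 0 genes were called in DOPA, and the standard error of Th in DOPA was 0.2. Over 18357 genes, 10 of 18 same-numbered pairs of arrays correlated over 0.1 (range -0.29 to 0.48). Their median was 0.11, against -0.07 for the 36 other pairs of arrays from different groups. Of the 12 arrays, 5 correlated best with their own number. The main fit did not treat the arrays as paired. These correlations cannot decide that choice, since each slide carried 1 array of each group, and the fit with the block is therefore given beside it. Only the arrays compared could not be used for the main effects and the interaction, and the protein identity of Maoa and Maob was not run. Th and Slc18a2 lie near background, and what set the size of their differences was not tested.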
